A study of Mus musculus with 60 samples.

Results

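The cells described here are cultured mouse fibroblasts of the WT 4F line whose treatment label reads TGFB, and they are 3 of the 60 libraries of the series, chosen by that label and not by any measured value. They carry the genotype label 4FJ_(+/-)_OCT4-GFP and came from the tail tip of a female of 22 weeks. By the study's methods, the 4F line holds a doxycycline-inducible cassette of Oct4, Sox2, Klf4 and c-Myc in the Col1a1 locus and a green fluorescent reporter of Oct4, and neither the labels nor the methods give doxycycline to these 3 libraries. The labels do not say which agent, dose or time the word TGFB stands for, and the design text of the series names only small-molecule inhibitors of TGFb signalling, so the cells are called TGFB-labelled throughout. They were compared first with 3 WT control libraries of the same count table, with genotype ERCC1_(+/+)_WT, from the tail tip of a female of 14 weeks, so that line, age and treatment label differ together in this comparison. The second comparison set them against 3 libraries of the same 4F line, sex and age at day 0 of reprogramming, called untreated 4F cells here, which lie in another count table, so that table and label cannot be told apart in it. Nothing in the labels says that the 3 libraries of a group came from separate cultures or animals, and the p-values therefore measure only the spread between these libraries, which may be technical.

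Transforming growth factor beta (TGFb) is a secreted cytokine that is stored in the matrix in a latent form and is released by integrins and proteases. It binds the type II receptor Tgfbr2, which activates the type I receptor ALK5, encoded by Tgfbr1, and the receptor phosphorylates Smad2 and Smad3, which enter the nucleus with Smad4. In fibroblasts the pathway is known for raising contractile proteins, collagen and its crosslinking enzymes, while bone morphogenetic proteins (BMPs), ligands of the same family, act through Smad1 and Smad5 on the Id genes. Smad7, Skil and Pmepa1 are feedback inhibitors that the pathway itself induces.

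The libraries held between 25374858 and 26788048 counts in the TGFB-labelled cells, between 25293942 and 27782538 in the WT control and between 16882346 and 18145653 in the untreated 4F cells. WT control replicate 2 stood apart, with a variance against its partners of 56.2 and 89.2 times counting noise, beside 11.0 for the other pair and between 6.23 and 11.9 for the TGFB-labelled pairs. The WT control went against its tail tip label in its posterior Hox genes, which mark the position of a cell along the body axis. The 4 genes of Hox group 13 summed to 0.812 CPM of the library total (counts scaled to 1e6) in the WT control and to 2.52 in the WT control labelled skin, against 83.2 in the TGFB-labelled cells and 326 in the untreated 4F cells. All 13 fibroblast markers were detected in the TGFB-labelled libraries and summed to between 65655 and 69942 CPM, beside 49273 to 51013 in the untreated 4F and 86525 to 89313 in the WT control. Of the 13, 6 (46.2%) were lower in the TGFB-labelled cells in both comparisons and 1 (7.7%) was higher, beside 24.7% and 21.4% of all genes. Pdgfra, the alpha receptor of platelet-derived growth factor, averaged 16.5, 558 and 1209.8 CPM in the TGFB-labelled, untreated 4F and WT control cells. The 9 smooth muscle and pericyte markers summed to between 1536 and 1573 CPM in the TGFB-labelled libraries, to between 116 and 142 in the untreated 4F and to between 127 and 136 in the WT control. Cnn1 and Cspg4 gave most of it, with means of 1003 and 394 CPM, and Myh11, the smooth muscle myosin, averaged 11.3 CPM. The 7 endothelial markers summed to at most 1.96 CPM in the TGFB-labelled libraries, to between 14.1 and 16.9 in the untreated 4F and to between 75.7 and 93.8 in the WT control, and the 7 leukocyte markers to between 21.7 and 25.3, between 73.7 and 142 and between 7.71 and 9.27 in that order. The 10 keratinocyte and epithelial markers summed to between 341 and 371 CPM in the TGFB-labelled libraries, to between 20.4 and 28.4 in the untreated 4F and to between 13.3 and 15.9 in the WT control. In the TGFB-labelled libraries nearly all of it came from Sfn and Dsp, with the other 8 markers under 1 CPM each. Adipocyte markers had no count in the TGFB-labelled libraries and skeletal muscle markers summed to at most 0.128 CPM. The part of these other cell types in the results was not tested, and in bulk RNA fewer cells of a type and less RNA per cell cannot be told apart.

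**Figure D1:**
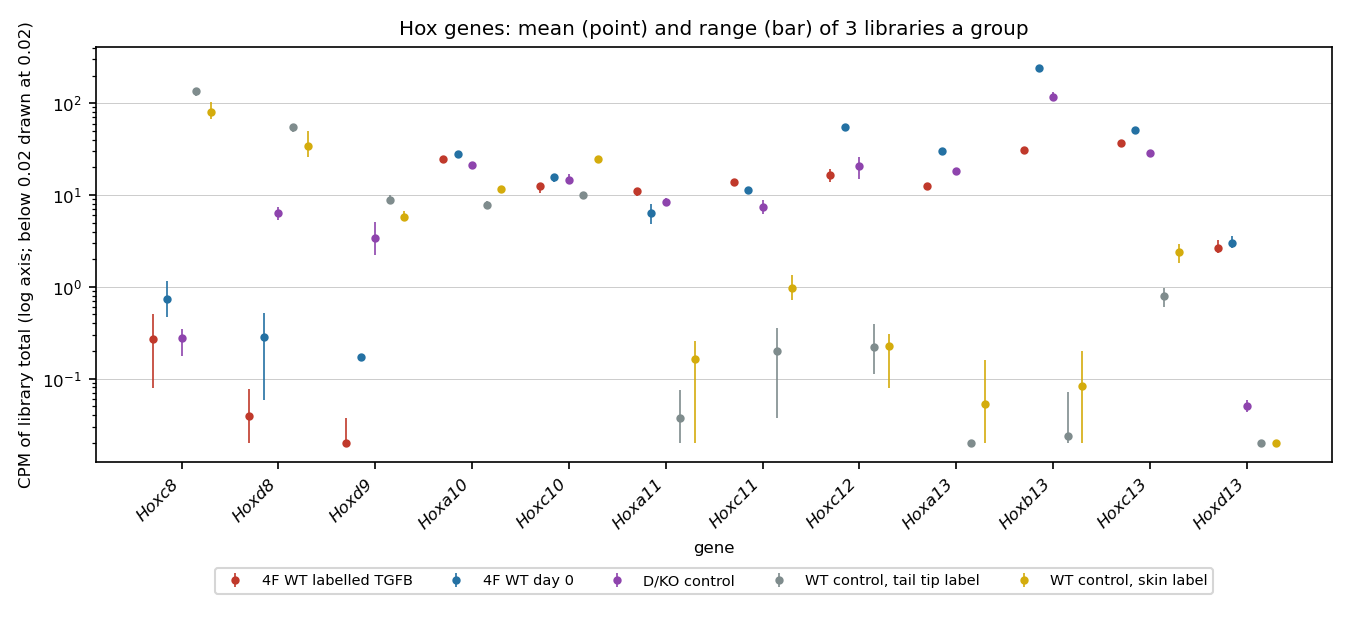
CPM of the library total (log axis) for 12 Hox genes in 5 groups of 3 libraries, with the mean as a point and the range of the libraries as a bar. The WT controls labelled tail tip and skin hold Hoxc8 and Hoxd8 and little of group 13, while the TGFB-labelled and untreated 4F cells and the D/KO control hold under 1 CPM of Hoxc8 on average and more of group 13.

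The line checks gave a mixed picture. Ddx3y, a Y-linked helicase, had no count in any of the 9 libraries of these female animals. Xist, the RNA that coats the inactive X chromosome, was at 25.1, 14.9 and 23.3 CPM in the TGFB-labelled libraries, at 411, 276 and 379 in the untreated 4F libraries and at 39.1, 93.4 and 36.7 in the WT control, so that the TGFB-labelled cells lay below both. The transcripts of Pou5f1, which encodes Oct4, averaged 1.14, 1.85 and 0 CPM and those of Sox2 averaged 1.90, 2.16 and 0.0266 CPM in the TGFB-labelled, untreated 4F and WT control cells, and reads of the cassette cannot be separated from those of the endogenous genes. Klf4 fell in both comparisons, with means of 28.9, 182 and 141 CPM, and Myc rose in both, with means of 81.8, 34.1 and 30.0 CPM. Ercc1, a subunit of a DNA repair endonuclease, was at 45.7, 46.5 and 41.2 CPM in the TGFB-labelled cells and rose by 1.34 and 1.20 on the log2 scale against the WT control and the untreated 4F cells.

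Promoter sequences are shown first for 5 genes of the contractile and cytokine results, because each holds a short motif named for a factor known to act with TGFb or serum signalling. The CArG box, which serum response factor binds, the Smad element CAGACA and the AP-1 element TGANTCA were searched on both strands of the 250 bases before each RefSeq start (build GRCm38.p6). Of 23 contractile and cytoskeletal genes with a RefSeq promoter (of 26 in the list), 7 (30.43%) held a CArG box, beside 439 of all 27025 genes (1.62%), and these 7 were Acta1, Actc1, Cnn2, Fhl2, Myl9, Srf and Vcl. None of the 13 TGFb target genes with a RefSeq promoter held one in this window. CAGACA was found in 5 of the 23 contractile genes (21.74%) and in 3 of the 13 TGFb target genes with one, of 22 (23.08%), beside 19.33% of all genes. TGANTCA was found in 4 of the 23 (17.39%) and in 2 of the 13 (15.38%), beside 7.82% of all genes. A match describes letters and is not a binding site. The promoters of Acta1 (chr8:123894776-123895025, minus strand), Myl9 (chr2:156775214-156775463, plus strand) and Vcl (chr14:20929148-20929397, plus strand) follow with the CArG box in capitals, and those of Il11 (chr7:4778142-4778391, minus strand) and Lif (chr11:4257318-4257567, plus strand) with TGANTCA in capitals, each 5′ to 3′.
Acta1: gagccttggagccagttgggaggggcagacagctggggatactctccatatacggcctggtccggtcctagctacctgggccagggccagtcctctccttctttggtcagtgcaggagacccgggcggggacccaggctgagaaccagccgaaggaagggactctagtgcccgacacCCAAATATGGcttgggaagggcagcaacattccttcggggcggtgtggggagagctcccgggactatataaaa
Myl9: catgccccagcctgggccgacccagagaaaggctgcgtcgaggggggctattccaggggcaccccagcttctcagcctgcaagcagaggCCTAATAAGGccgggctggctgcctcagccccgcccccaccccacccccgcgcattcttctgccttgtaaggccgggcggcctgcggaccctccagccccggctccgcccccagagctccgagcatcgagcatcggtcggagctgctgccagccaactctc
Vcl: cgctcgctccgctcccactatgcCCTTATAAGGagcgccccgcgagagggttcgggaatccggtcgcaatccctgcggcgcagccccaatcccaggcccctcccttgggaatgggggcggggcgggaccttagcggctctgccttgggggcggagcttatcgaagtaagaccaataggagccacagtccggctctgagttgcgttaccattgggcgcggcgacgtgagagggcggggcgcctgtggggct
Il11: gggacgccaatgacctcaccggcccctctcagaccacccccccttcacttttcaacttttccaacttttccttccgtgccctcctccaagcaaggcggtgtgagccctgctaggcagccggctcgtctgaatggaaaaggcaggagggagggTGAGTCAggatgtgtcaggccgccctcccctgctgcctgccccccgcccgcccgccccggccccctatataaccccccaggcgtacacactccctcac
Lif: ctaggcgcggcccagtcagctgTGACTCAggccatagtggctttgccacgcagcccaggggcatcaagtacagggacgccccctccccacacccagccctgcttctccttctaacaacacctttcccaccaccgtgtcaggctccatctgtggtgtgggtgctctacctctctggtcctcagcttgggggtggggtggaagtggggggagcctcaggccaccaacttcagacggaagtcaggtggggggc

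In the first comparison 4473 of 15652 genes tested were higher in the TGFB-labelled cells than in the WT control (28.6%) and 5266 were lower (33.6%), at an adjusted p under 0.05 in edgeR's quasi-likelihood test. Levels are given as TMM-scaled CPM and differences as log2 values, and where a pair of log2 values stands in brackets the first is against the WT control and the second against the untreated 4F cells. Where 3 CPM means stand in a row they are for the TGFB-labelled, untreated 4F and WT control cells. In the second comparison 4683 of 14920 genes were higher than in the untreated 4F cells (31.4%) and 5425 were lower (36.4%). The 2 baselines differed from each other almost as widely, since 4282 genes (28.7%) were higher and 4249 (28.5%) lower in the untreated 4F cells than in the WT control. Within the first table, the WT controls labelled skin and tail tip differed in 2829 genes higher (18.1%) and 2519 lower (16.1%) in skin. Of 14734 genes with a symbol tested in both comparisons, 3158 (21.4%) were higher in the TGFB-labelled cells in both, 3646 (24.7%) were lower in both and 508 (3.45%) were called in opposite directions, and these counts rest on the 3 TGFB-labelled libraries that both comparisons share. A further 951 genes were higher and 1210 lower than in the WT control without a call against the untreated 4F cells. With 3 other day 0 libraries of the same line, whose label adds VC, as the second baseline, 2794 of the 3158 and 2984 of the 3646 kept their calls. VC stands in the paper for vitamin C and CHIR, which activates the Wnt pathway, so by its label this baseline was not untreated. With 3 WT libraries labelled skin (ERCC1_(+/+)_WT, female, 14 weeks) as the WT baseline, 2433 and 2755 kept them. Gene length moved with the first comparison, with a median log2 difference of −0.30 in the shortest of 5 bins of genes and 0.22 in the longest, beside 0.06 and −0.13 in the second, and after removal of that trend 3077 of the 3158 and 3279 of the 3646 were still called in both. The same step also re-centred each library, and the median log2 differences before it were −0.106 in the first comparison and −0.087 in the second. After it the calls over all genes tested were 5231 higher and 4984 lower in the first comparison, 5537 and 5094 in the second and 3981 and 3472 in both. The parts of the length trend and of the re-centring in this turned balance were not told apart.

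**Figure D2:**
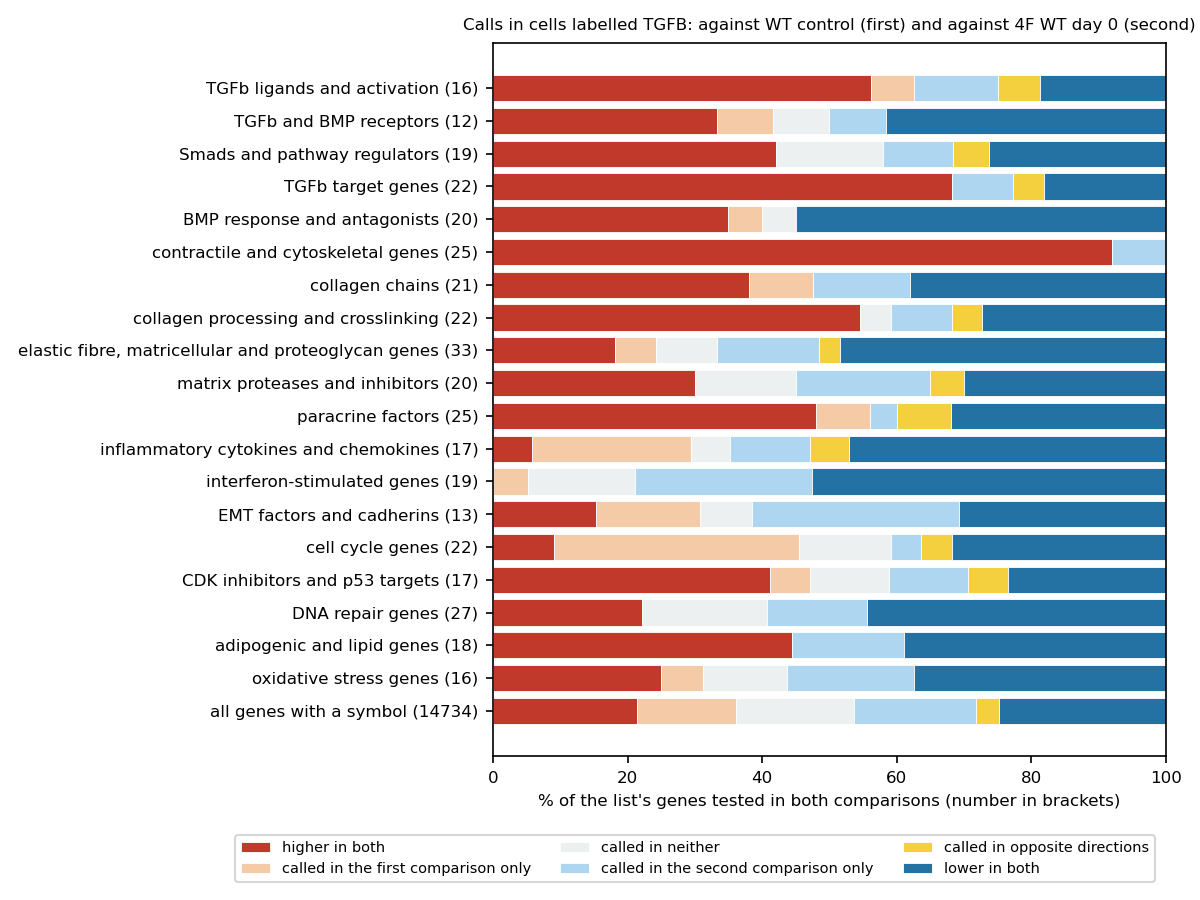
Share of the genes of each list, as % of those tested in both comparisons (number in brackets), that were called higher in both, lower in both, in 1 comparison only, in opposite directions or in neither. The contractile list has the widest bar of genes higher in both, 23 of 25, and the interferon-stimulated list has none.

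The genes of TGFb ligands and their activation were largely higher in the TGFB-labelled cells. Of 16 members tested in both comparisons, 9 rose in both and 3 fell in both, beside 21.4% and 24.7% of all genes, with median log2 differences of 1.49 and 0.92 over the list beside −0.11 and −0.09 over all genes. Tgfb1, the main ligand, was at 309, 339.8 and 278 CPM in the 3 TGFB-labelled libraries, at 34.5, 29.7 and 28.5 in the untreated 4F and at 49.4, 38.4 and 48.6 in the WT control. Every TGFB-labelled library lay several-fold above every other, with log2 differences of 2.76 ± 0.11 (SE; edgeR adjusted p = 6.74e-15) against the WT control and 3.32 ± 0.13 (adjusted p = 3.59e-10) against the untreated 4F cells. Tgfb2 averaged 55.7, 5.49 and 20.3 CPM and Tgfb3 averaged 396, 119 and 49.0 CPM in the TGFB-labelled, untreated 4F and WT control cells, and both rose in both comparisons (log2 1.45 and 3.34, and 3.01 and 1.74). With the VC-labelled day 0 cells as the second baseline the rises of Tgfb2 and Tgfb3 were smaller and still called, at 1.35 and 0.57, and with the WT skin control those of Tgfb1, Tgfb2 and Tgfb3 were 1.55, 0.82 and 2.09. Inhba, the subunit of activin A, was at 3214, 2934 and 3048 CPM in the TGFB-labelled libraries against 299, 252 and 287 in the untreated 4F and 56.9, 76.3 and 49.3 in the WT control. Its log2 rise was 5.65 ± 0.21 against the WT control and 3.46 ± 0.15 against the untreated 4F cells (edgeR adjusted p = 3.94e-15 and 1.03e-09). Inhbb, the subunit of activin B, moved the other way, from 308 ± 18.0 CPM in the untreated 4F cells and 391 ± 22.1 in the WT control to 55.3 ± 3.87 in the TGFB-labelled cells (SD, n = 3). Thbs1, the thrombospondin that can release TGFb from its latent complex, averaged 19793, 11321 and 6763 CPM and rose in both. Ltbp1, a latent TGFb binding protein, was called in opposite directions, with log2 differences of 0.72 and -1.16, and Itgb5, an integrin of latent TGFb, was called higher than the WT control and not called against the untreated 4F cells (0.30, beside 0.14).

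**Figure D3:**
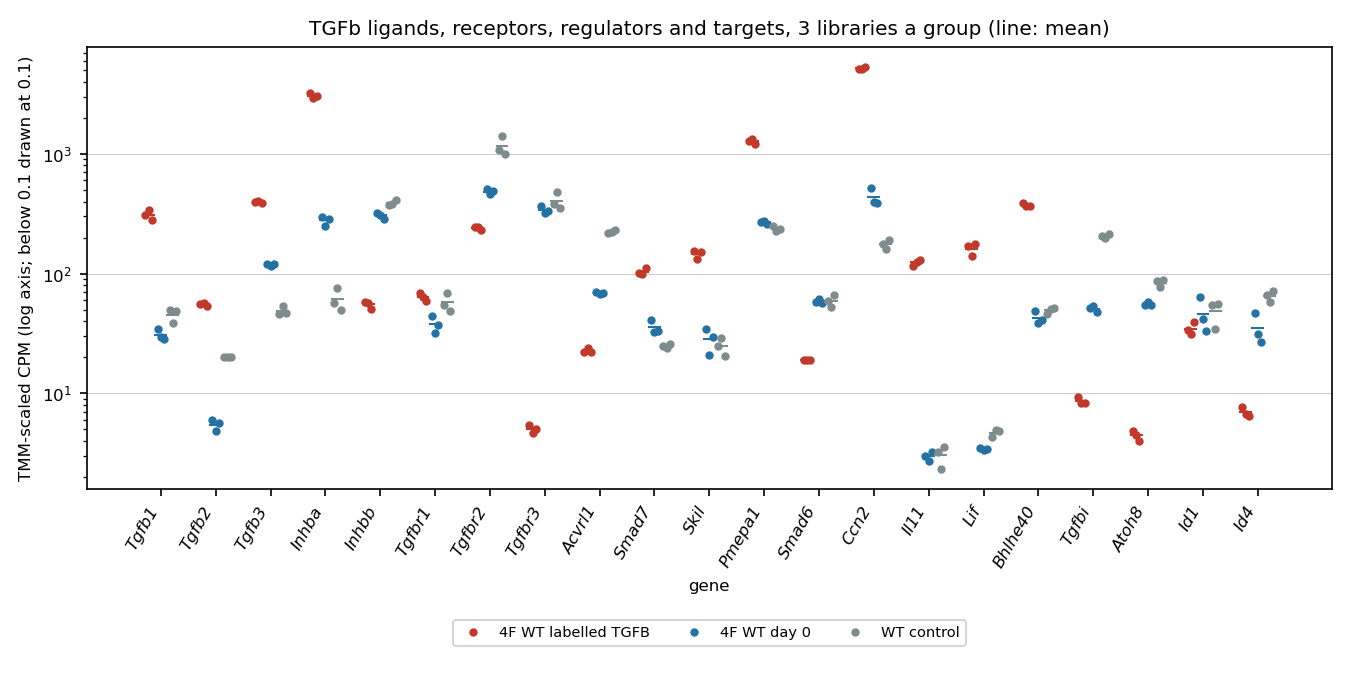
TMM-scaled CPM (log axis) of 21 TGFb pathway genes in 3 libraries of each group, with each library as a point and the group mean as a line. Ccn2, Il11 and Lif lie highest in the TGFB-labelled libraries, Tgfbr3, Tgfbi and Atoh8 lie lowest there, and the points of Id1 overlap.

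The receptors did not move as 1 group: of 12 tested, 4 (33.3%) rose in both comparisons and 5 (41.7%) fell in both, beside 21.4% and 24.7% of all genes, with medians of −0.20 and 0.04. Tgfbr2, the ligand-binding type II receptor, was at 243, 244 and 231 CPM in the TGFB-labelled libraries, at 506, 459.9 and 486 in the untreated 4F and at 1086, 1405 and 999 in the WT control, and it fell in both (log2 -2.29 and -1.02; edgeR adjusted p = 7.81e-10 and 6.84e-06), also with the WT skin control (-1.20) and with the VC-labelled day 0 cells (-1.63). The co-receptor Tgfbr3, betaglycan, showed the widest drop of the list, to 5.46, 4.67 and 5.04 CPM from 370.4, 323 and 334 in the untreated 4F and 382, 483 and 356 in the WT control. No TGFB-labelled library overlapped either baseline, and the log2 differences were -6.34 ± 0.21 and -6.08 ± 0.15 (edgeR adjusted p = 3.24e-16 and 9.22e-12). Tgfbr1, which encodes ALK5, was at 68.4, 63.8 and 59.5 CPM, inside the WT control range of 54.6, 69.1 and 48.6 and above the 44.5, 31.8 and 37.0 of the untreated 4F cells. It rose against the untreated 4F cells alone (0.76 ± 0.14, edgeR adjusted p = 0.00053), and its difference from the WT control was 0.14 ± 0.17 (adjusted p = 0.466). Acvrl1, the type I receptor ALK1, and Acvr1b, the activin type I receptor ALK4, fell in both, with means of 22.7, 68.8 and 223 CPM and of 4.80, 15.1 and 31.0 CPM. The co-receptor endoglin (Eng) and the BMP type II receptor Bmpr2 rose in both (log2 1.33 and 0.95, and 1.14 and 1.02), although Eng differed by only 0.02 from the WT skin control. With that skin control as the WT baseline, 2 receptors rose in both in place of 4. Bmpr1a, a BMP type I receptor, was called lower than the WT control and not called against the untreated 4F cells (log2 -0.41 and -0.10).

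Among 19 Smads and pathway regulators, 8 (42.1%) rose in both comparisons and 5 (26.3%) fell in both, beside 21.4% and 24.7% of all genes. The feedback inhibitors Pmepa1, Smad7 and Skil, which the target list holds as well, rose in both. Pmepa1, which sequesters receptor Smads, was at 1281, 1321 and 1201 CPM against 268, 274 and 262 in the untreated 4F and 252, 226 and 238 in the WT control libraries (log2 2.40 and 2.24). Smad7, which targets the receptor for degradation, was at 101, 98.8 and 112 CPM against 41.0, 32.6 and 33.1 in the untreated 4F and 24.8, 23.8 and 25.8 in the WT control, with log2 differences of 2.06 ± 0.10 and 1.55 ± 0.11 (edgeR adjusted p = 1.31e-13 and 6.11e-08). Skil, which encodes the Smad repressor SnoN, was at 153, 133 and 151 CPM against 34.4, 20.9 and 29.5 in the untreated 4F and 25.1, 28.8 and 20.5 in the WT control (log2 2.55 and 2.37). Against the WT skin control the rises were smaller and still called, at 0.89 for Smad7 and 1.30 for Skil. In each of these genes the lowest TGFB-labelled library lay above the highest library of both baselines. Smad6, the inhibitory Smad of the BMP branch, fell to 19.1, 19.1 and 19.1 CPM from 58.2, 62.0 and 56.6 in the untreated 4F and 59.4, 52.4 and 66.9 in the WT control (log2 -1.65 and -1.62). Smad3 was called in opposite directions and by small amounts (log2 0.43 and -0.28).

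Of 22 TGFb target genes, 15 (68.2%) rose in both comparisons, beside 21.4% of all genes, and 4 (18.2%) fell in both, under the 24.7% of all genes, and the medians were 2.06 and 1.52. Ccn2, the connective tissue growth factor, was at 5095, 5152 and 5297 CPM against 518, 399.9 and 389.6 in the untreated 4F and 176, 161 and 192 in the WT control, and no baseline library came near the TGFB-labelled values. Its differences were 4.87 ± 0.17 against the WT control (edgeR adjusted p = 1.41e-15) and 3.57 ± 0.13 against the untreated 4F cells (adjusted p = 1.7e-10). An opposite-strand transcript, Gm15270, covers 65.4% of the exon bases of Ccn2, and strand use in the counting was not given in the sources used here, so its reads cannot be told apart from those of Ccn2. Il11, a cytokine of the interleukin 6 family and a TGFb target in fibroblasts with TGANTCA in its promoter, was at 117, 125 and 130.3 CPM against 3.03, 2.73 and 3.26 in the untreated 4F and 3.26, 2.33 and 3.59 in the WT control. That difference was 5.33 ± 0.29 and 5.36 ± 0.15 (edgeR adjusted p = 1.48e-12 and 2.42e-11), nearly equal against both baselines. Against the WT skin control the differences were smaller and still called, at 2.34 for Ccn2 and 3.50 for Il11, and against the VC-labelled day 0 cells they were 4.32 and 6.15. Bhlhe40, a transcriptional repressor, averaged 374, 42.7 and 49.5 CPM and Nox4, a source of hydrogen peroxide, 66.5, 8.36 and 10.8 CPM, both higher than in either baseline. Tgfbi, a matrix protein named for its induction by TGFb, went the other way and fell to 9.35, 8.34 and 8.25 CPM from 51.2, 54.1 and 47.8 in the untreated 4F and 206, 199 and 215 in the WT control (log2 -4.59 and -2.56). Junb also fell in both (log2 -1.03 and -1.04), and Rasl11b, a small GTPase, was called in opposite directions (log2 -0.65 and 2.80).

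Genes of the BMP response and its antagonists were called often in both directions, with 11 of 20 (55.0%) down in both comparisons, beside 24.7% of all genes, 7 (35.0%) up in both, beside 21.4%, and medians of −1.43 and −0.81. Atoh8, a helix-loop-helix factor induced by BMPs, was at 4.82, 4.53 and 4.01 CPM in the TGFB-labelled libraries against 54.4, 57.5 and 54.3 in the untreated 4F and 86.8, 77.3 and 88.2 in the WT control (log2 -4.25 and -3.63). Id4 fell from means of 35.1 and 65.5 CPM to 6.96 (log2 -3.24 and -2.33). Id1, the standard BMP readout, was not called in either comparison: its libraries were at 33.9, 31.1 and 39.2 CPM and overlapped the 63.6, 42.0 and 33.5 of the untreated 4F and the 54.6, 34.3 and 56.3 of the WT control, with adjusted p = 0.102 and 0.122 in edgeR. Its difference of -0.49 from the WT control turned to 1.02 with the skin control, and that of -0.42 from the untreated 4F cells to 0.09 with the VC-labelled day 0 cells. Without WT control replicate 2 it was called lower than the WT control, at −0.69 (edgeR adjusted p = 0.03). It was called lower than the untreated 4F cells under 5 alternatives, at -0.39 with no filter on low counts (edgeR adjusted p = 0.00405), -0.41 in a fit of the 6 libraries compared (0.0183), -0.53 with the gene length trend removed (0.021), -0.39 without WT control replicate 2 (0.0212) and -0.61 without untreated 4F replicate 3 (0.0356). Msx2, a homeobox target of BMPs, rose in both (log2 5.04 and 2.33). Follistatin (Fst), which binds activins, was called lower than the WT control and not in the second comparison (log2 -1.69 and 0.03).

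The contractile and cytoskeletal genes were the most uniform list, with 23 of 25 members (92.0%) higher in both comparisons, beside 21.4% of all genes, none lower in both, beside 24.7%, and medians of 1.77 and 2.01. Acta1, skeletal alpha actin, which carries the CArG box 73 bases before its start, was at 1826, 1992 and 1651 CPM in the TGFB-labelled libraries, at 12.1, 11.0 and 13.5 in the untreated 4F and at 16.3, 13.6 and 17.1 in the WT control. No baseline library came near these values, with log2 differences of 6.85 ± 0.26 and 7.22 ± 0.14 (edgeR adjusted p = 4.97e-15 and 3.25e-12). Acta2, the smooth muscle actin of myofibroblasts, was at 5877, 6077 and 5423 CPM against 419.8, 499 and 453 in the untreated 4F and 1004, 808 and 998 in the WT control, a rise of 2.62 ± 0.17 and 3.66 ± 0.12 (edgeR adjusted p = 1.97e-11 and 7.85e-11). Actg2, the enteric smooth muscle actin, was at 650.4, 703 and 615 CPM against 31.9, 31.3 and 31.9 in the untreated 4F and 50.6, 47.4 and 53.5 in the WT control (log2 3.69 and 4.37). All 3 actins stood above every library of both baselines, and since their coding sequences are alike and the counting of reads that map to several genes was not given, the split between them is uncertain. Calponin (Cnn1) averaged 1003, 38.9 and 56.0 CPM, tropomyosin (Tpm1) 3028, 671 and 403 CPM and the actin-binding adaptor Pdlim7 331, 74.4 and 87.0 CPM. Myl9, the regulatory light chain of myosin, averaged 775, 132 and 219 CPM, and Vcl, vinculin of the focal adhesion, 728, 263 and 146 CPM. Tagln (transgelin) rose from means of 3.89 and 6.98 CPM to 40.8, but 85.5% of its exon bases are shared with the opposite-strand transcript Gm48529. Fhl2, a cofactor at focal adhesions with a CArG box, was among the exceptions, at -0.22 and -0.69 on the log2 scale, lower than the untreated 4F cells. With the WT skin control as the baseline the count fell from 23 to 15, with 1 gene lower in both, and the difference of Acta1 was 5.04, that of Acta2 0.77 and that of Tagln 0.51 (adjusted p = 0.298). The smooth muscle markers, of which Cnn1, Lmod1 and Myh11 are also members of the contractile list, summed to a higher level in the same libraries (1536 to 1573 CPM), carried by Cnn1 and Cspg4. Of the 7 tested in both comparisons, 4 (57.1%) were higher in both and none was lower in both, beside 21.4% and 24.7% of all genes, while Rgs5 and Notch3 were lower than the untreated 4F cells (-0.92 and -0.95) and were not called against the WT control (0.36 and -0.56). With the WT skin control 2 were higher and 2 lower in both, and their part in the result was not tested.

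**Figure D4:**
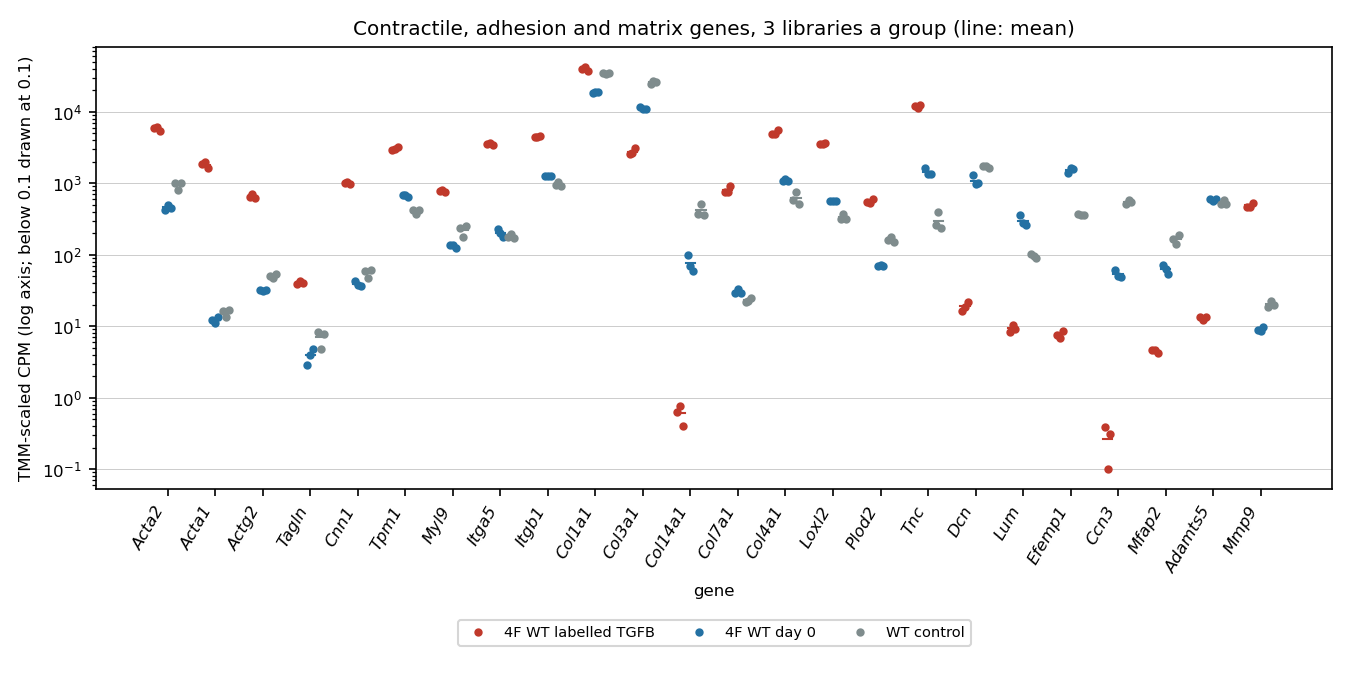
TMM-scaled CPM (log axis) of 24 contractile, adhesion and matrix genes in 3 libraries of each group, with each library as a point and the group mean as a line. The actins, Itga5, Col7a1, Loxl2, Tnc and Mmp9 are highest in the TGFB-labelled libraries, while Col3a1, Col14a1, Dcn, Efemp1, Ccn3, Mfap2 and Adamts5 are lowest there.

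The collagen chains divided evenly, with 8 of 21 (38.1%) higher in both comparisons and 8 lower in both, beside 21.4% and 24.7% of all genes (medians 0.19 and 0.60). Col1a1, the fibril-forming chain of type I collagen, was at 39292, 41974 and 37562 CPM in the TGFB-labelled libraries, at 18270.3, 19116 and 18594 in the untreated 4F and at 34506, 33812 and 34875 in the WT control. It exceeded the untreated 4F cells (1.09 ± 0.09, edgeR adjusted p = 4.45e-07), and its difference from the WT control was 0.19 ± 0.21 (adjusted p = 0.435). This direction changed with the baseline, to -0.58 against the WT skin control and -1.18 against the VC-labelled day 0 cells, whose label names vitamin C and CHIR. The cassette of the 4F line lies in the same locus of the genome. Col3a1, the chain of type III collagen, fell to 2564, 2613 and 3119.5 CPM from 11744, 11062 and 10731 in the untreated 4F and 24255, 27113 and 25572 in the WT control (log2 -3.22 and -2.02). Col14a1, which decorates collagen fibrils, fell from means of 75.9 and 416 CPM to 0.601. Col7a1, the anchoring fibril collagen, rose to 762, 750.4 and 917 CPM from 28.7, 33.2 and 28.8 in the untreated 4F and 21.6, 22.6 and 25.2 in the WT control (log2 5.12 and 4.74), and Col8a1, a short-chain collagen, rose by 2.91 and 1.41. Col10a1 and Col16a1 were called in the first comparison and not in the second (log2 1.65 and 0.72, and 0.55 and 0.12).

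The enzymes that modify and crosslink collagen were mostly higher, with 12 of 22 (54.5%) up in both comparisons, beside 21.4% of all genes, and 6 (27.3%) down in both, near the 24.7% of all genes (medians 0.36 and 0.87). Loxl2, a lysyl oxidase, was at 3523, 3483 and 3633 CPM against 563, 559 and 563 in the untreated 4F and 318, 370.2 and 311 in the WT control libraries (log2 3.40 and 2.66). Plod2, the lysyl hydroxylase of collagen telopeptides, was at 543, 526 and 602 CPM against 69.2, 71.9 and 70.2 in the untreated 4F and 159, 177 and 152 in the WT control (log2 1.77 and 2.98). P4ha1 and P3h1, prolyl hydroxylases, rose by 1.59 and 1.53 and by 1.85 and 1.52, and Lox averaged 15455, 5805 and 5166 CPM. In all of these the TGFB-labelled libraries lay above both baselines. P4ha2, another prolyl hydroxylase subunit, was called in opposite directions (log2 -0.30 and 1.44).

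Elastic fibre, matricellular and proteoglycan genes leaned lower, with 16 of 33 (48.5%) down in both comparisons, beside 24.7% of all genes, 6 (18.2%) up in both, near the 21.4% of all genes, and medians of −1.63 and −1.14. Dcn (decorin), a small proteoglycan that binds TGFb, was at 16.3, 18.6 and 21.6 CPM in the TGFB-labelled libraries, at 1286, 984 and 989.9 in the untreated 4F and at 1734, 1715 and 1639 in the WT control. The log2 differences of Dcn were -6.50 ± 0.13 and -5.85 ± 0.15 (edgeR adjusted p = 3.54e-19 and 1.34e-11). Ccn3, a matricellular relative of Ccn2, fell from means of 53.9 and 545 CPM to 0.262, and the fibulin Efemp1 from 1549 and 364 to 7.66. Mfap2, a microfibril protein, fell by a comparable amount (log2 -5.21 and -3.81), and in none of these genes did the groups overlap. Tnc (tenascin C) was the clearest exception, at 12009.6, 11282 and 12392 CPM against 1610.1, 1323 and 1347 in the untreated 4F and 262, 395 and 237 in the WT control (log2 5.31 and 3.06). Fn1 (fibronectin) averaged 20087, 10364 and 6671 CPM and rose in both, although WT control replicate 2 lay inside the range of the untreated 4F libraries. Postn (periostin) and Ccn1 were called in the first comparison alone (log2 -1.63 and 0.04, and 0.81 and 0.13). With the skin control as the WT baseline, 3 members in place of 6 were higher in both.

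Matrix proteases and their inhibitors had 6 of 20 members (30.0%) higher and 6 lower in both comparisons, not far from 21.4% and 24.7% of all genes. Mmp9, the gelatinase, was at 460.0, 470.0 and 534 CPM against 8.77, 8.50 and 9.89 in the untreated 4F and 18.6, 22.2 and 19.9 in the WT control (log2 4.58 and 5.75). Adamts5, an aggrecanase, was at 13.4, 12.3 and 13.3 CPM against 609, 567 and 598 in the untreated 4F and 509, 582 and 516 in the WT control (log2 -5.37 and -5.51). Adamts1 and Mmp23 fell in both as well (log2 -2.85 and -2.64, and -1.75 and -1.48). The collagenase Mmp13 was called in opposite directions: at 6.62, 6.64 and 8.30 CPM it lay above the WT control (0.0855 on average) and below the untreated 4F cells (19.5). Its log2 differences of 6.27 and -1.44 were 2.21 with the WT skin control and -0.71 with the VC-labelled day 0 cells, and the former was 7.35 without WT control replicate 1. Mmp3 (stromelysin) fell against the untreated 4F cells (-0.56 ± 0.11, edgeR adjusted p = 0.000924), and its difference from the WT control was 0.37 ± 0.19 (adjusted p = 0.101). With the VC-labelled day 0 cells the former was -2.68, in the fit of all 60 libraries it was not called (-0.52, edgeR adjusted p = 0.06), and the latter was called higher with the skin control (0.70, edgeR adjusted p = 0.00466), with the gene length trend removed (0.75, adjusted p = 5.35e-05) and in a fit of the 6 libraries compared (0.40, adjusted p = 0.0218). With the skin control, 4 members in place of 6 were higher in both.

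Among 25 paracrine factors, 12 (48.0%) rose in both comparisons and 8 (32.0%) fell in both, beside 21.4% and 24.7% of all genes. Hbegf, the heparin-binding ligand of the epidermal growth factor receptor, was at 1588, 1651 and 1554 CPM in the TGFB-labelled libraries, at 16.9, 14.6 and 15.5 in the untreated 4F and at 7.23, 6.69 and 7.55 in the WT control. It was the strongest rise of the list (7.79 ± 0.15 and 6.67 ± 0.11, edgeR adjusted p = 2.24e-19 and 7.15e-13). Lif, a cytokine of the interleukin 6 family, was at 169, 141 and 176 CPM against 3.50, 3.39 and 3.46 in the untreated 4F and 4.29, 4.96 and 4.87 in the WT control (log2 5.09 and 5.55), and Vegfa, the endothelial growth factor, averaged 600.4, 151 and 109 CPM. Il6 itself was at a mean of 0.337 CPM in the TGFB-labelled cells and was called lower than the WT control and not in the second comparison (log2 -2.57 and 0.01). Cxcl12, a chemokine of stromal cells, fell to 10.2, 9.47 and 10.5 CPM from 1149, 1081 and 1086 in the untreated 4F and 615, 638 and 630.3 in the WT control (log2 -5.97 and -6.78). Igfbp3 and Igf1, the binding protein and the insulin-like growth factor, fell from 578 and 715 CPM to 13.2 and from 15.1 and 269.6 CPM to 3.69. Angptl2 was called higher than the WT control and not in the second comparison (log2 1.49 and 0.05).

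Inflammatory cytokines and chemokines leaned lower, with 8 of 17 (47.1%) down in both comparisons, beside 24.7% of all genes, 1 (5.9%) up in both, beside 21.4%, and medians of −2.05 and −2.60. The single rise was Ptgs2, the inducible cyclooxygenase, at 2137, 1998 and 2195 CPM against 72.1, 68.6 and 81.4 in the untreated 4F and 20.0, 23.4 and 23.3 in the WT control (6.56 ± 0.13 and 4.83 ± 0.11, edgeR adjusted p = 2.46e-19 and 5.67e-12). Cxcl5, a neutrophil chemokine, fell to 0.384, 0.808 and 0.312 CPM from 579, 724 and 716 in the untreated 4F and 173, 164 and 230.1 in the WT control (log2 -8.56 and -10.38). Cxcl1 fell from 84.6 and 24.6 CPM to 0.382, and complement C3 from 52.4 and 1315 to 1.33. Saa3 and Cxcl16 were called lower than the WT control (log2 -8.96 and -1.53). Against the untreated 4F cells Saa3 was at -3.68 ± 1.56 (edgeR adjusted p = 0.0532) and Cxcl16 at -0.15 ± 0.16 (adjusted p = 0.433). Interferon-stimulated genes pointed the same way, with 10 of 19 (52.6%) down in both and none up in both, beside the same shares of all genes (medians −1.90 and −2.09). Irf9, a subunit of the interferon-stimulated transcription complex, was at 4.35, 13.8 and 5.93 CPM, with replicate 2 above its partners, against 35.3, 33.9 and 33.1 in the untreated 4F and 47.8, 36.6 and 39.8 in the WT control (log2 -2.38 and -2.09). The same replicate was also above its partners in Bst2, a restriction factor, with 1.96, 11.4 and 2.72 CPM. Zbp1 and Oasl2 fell in both (log2 -5.46 and -5.40, and -4.17 and -3.58), while Ifi27l2a was called in the first comparison alone (log2 -5.41 and -1.11). With the WT skin control, 4 interferon-stimulated genes in place of 10 were lower in both. Summed leukocyte markers were lower than in the untreated 4F cells and higher than in the WT control, and their part in these lists was not tested.

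Of 13 factors of the epithelial to mesenchymal transition (EMT), cadherins and integrins, 2 rose in both comparisons and 4 fell in both, near the shares of all genes. Both rises were integrins. Itga5, the alpha chain of the fibronectin receptor, was at 3515, 3611 and 3437 CPM against 228, 203 and 179 in the untreated 4F and 179, 195 and 169 in the WT control (log2 4.27 and 4.11), and its partner Itgb1 averaged 4449.6, 1245 and 967 CPM. Prrx1 and Twist1, mesenchymal transcription factors, fell in both (log2 -1.74 and -0.45, and -1.68 and -1.81). Snai1 averaged 78.5, 114 and 70.8 CPM and was called lower than the untreated 4F cells and not called against the WT control (log2 0.14 and -0.54), and Snai2 fell in both (log2 -0.36 and -1.17). Vim (vimentin) and Zeb2 were called higher than the WT control and not called in the second comparison (log2 0.76 and 0.24, and 0.57 and -0.25).

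Cell cycle genes had 7 of 22 members (31.8%) down in both comparisons and 2 (9.1%) up in both, beside 24.7% and 21.4% of all genes. In the first comparison 15 were down, beside 33.6% of all genes, and in the second 8 were, beside 36.4%. Cdk1, the mitotic kinase, was at 3.33, 4.17 and 4.82 CPM against 10.3, 10.6 and 12.4 in the untreated 4F and 17.0, 14.8 and 18.6 in the WT control (log2 -2.04 and -1.44), and Ccnb1, its cyclin, averaged 1.74, 3.04 and 5.13 CPM. The rises were Myc, at 84.0, 77.8 and 83.7 CPM, and Ccne1, the cyclin of S phase entry (log2 0.82 and 0.59). Ccnd1 was called in opposite directions (log2 2.18 and -0.57), and Mcm3, a helicase subunit of replication, was called lower in the first comparison alone (log2 -1.04 and -0.05). With the VC-labelled baseline 15 genes in place of 7 were lower in both and 1 in place of 2 was higher. Over all genes with a symbol, 3314 in place of 3646 were lower in both with that baseline. Among 17 inhibitors of cyclin-dependent kinases and p53 targets, 7 (41.2%) rose in both, beside 21.4% of all genes, and 4 (23.5%) fell in both, near the 24.7% of all genes. Mdm2, the p53 ubiquitin ligase, was at 317, 297 and 335 CPM against 125, 123 and 124 in the untreated 4F and 56.7, 62.5 and 55.4 in the WT control (log2 2.43 and 1.36), Ccng1 averaged 1378, 505 and 331 CPM, and Cdkn1a, which encodes p21, 1065, 372 and 342 CPM. Cdkn2b, which encodes p15 and is a TGFb target, averaged 286, 102 and 68.2 CPM and rose in both. Cdkn1b and Cdkn1c fell in both (log2 -2.47 and -1.57, and -7.86 and -2.29), Sesn2 was called in opposite directions (log2 0.49 and -0.48) and Bax was called higher in the first comparison alone (log2 0.79 and 0.31).

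DNA repair genes showed 12 of 27 members (44.4%) lower in both comparisons, beside 24.7% of all genes, and 6 (22.2%) higher in both, near the 21.4% of all genes, by small amounts (medians −0.19 and −0.43). Lig1, the replicative ligase, fell (log2 -1.53 and -0.64), while Lig4, the ligase of end joining, rose (log2 1.12 and 0.99). With the VC-labelled baseline, 3 in place of 6 were higher in both. Of 18 adipogenic and lipid genes, 8 (44.4%) rose and 7 (38.9%) fell in both, beside 21.4% and 24.7% of all genes. Lpl, lipoprotein lipase, fell to 0.598, 0.718 and 0.312 CPM from 36.3, 25.8 and 29.7 in the untreated 4F and 728, 762 and 749 in the WT control, and Plin2, a lipid droplet coat protein, rose to 748, 799 and 782 CPM from 109, 122 and 122 in the untreated 4F and 81.7, 72.8 and 82.8 in the WT control. Cebpa and Klf15, transcription factors of adipocyte differentiation, fell (log2 -3.89 and -2.91, and -6.69 and -5.85). Of 16 oxidative stress genes, 4 (25.0%) rose and 6 (37.5%) fell in both, not far from 21.4% and 24.7% of all genes, and 5 and 4 did so with the gene length trend removed. The secreted peroxidase Gpx3, the glutathione transferase Gstm1 and the secreted dismutase Sod3 fell (log2 -3.81 and -1.31, -5.41 and -4.18, and -2.50 and -2.48), and Txnrd1, thioredoxin reductase, rose (log2 2.53 and 1.72). Slc7a11, the cystine transporter, was at 0.35 ± 0.12 against the WT control (edgeR adjusted p = 0.0163) and, without a call, at 0.29 ± 0.14 against the untreated 4F cells (adjusted p = 0.0762).

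Among falls called in both comparisons, the genes with the largest fitted log2 difference from the WT control were present in both baselines and at or near 0 in the TGFB-labelled cells. Scara5, a ferritin scavenger receptor (GRCm39 chr14:65903852-66002275), had no count in the TGFB-labelled libraries, 350.4, 332 and 297 CPM in the untreated 4F and 242, 261 and 216 in the WT control, at least 2470-fold and 1810-fold higher on a floor of 3 counts per library. Clec3b, which encodes tetranectin, also had no count, against means of 80.7 and 353 CPM, at least 611-fold and 2670-fold. The peptidase Xpnpep2 and the eosinophil chemokine Ccl11 had no count either, and were at least 70.6-fold and 69.8-fold higher in the untreated 4F cells and at least 125-fold and 81.1-fold higher in the WT control. Sfrp2, a secreted Wnt antagonist, averaged 0.0583, 117 and 259 CPM in the TGFB-labelled, untreated 4F and WT control cells, Ptn, the growth factor pleiotrophin, 0.383, 274 and 3728 CPM, and Adamts15, a matrix protease, 0.015, 21.5 and 164 CPM. Dlk1, a noncanonical Notch ligand, averaged 1.09, 25.8 and 4093 CPM and the steroid and xenobiotic oxidase Cyp1b1 0.455, 28.5 and 952 CPM.

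Among rises called in both, the genes with the largest fitted log2 difference from the WT control were near or at 0 in the baselines. For a group with no count that fitted value depends on the prior count, so the choice of these genes is not a ranking of true folds, and Hbegf and Acta1, with counts in every group, rose by 222-fold and 116-fold over the WT control. Prr9, a proline-rich protein gene, was at 21.2, 17.0 and 22.2 CPM in the TGFB-labelled libraries with no count in the WT control, at least 178-fold higher, and at 0.0329 on average in the untreated 4F cells. Rph3a, rabphilin of vesicle trafficking, was at 15.2, 14.0 and 10.9 CPM and Kcnk1, a potassium channel, at 7.56, 8.34 and 7.89 CPM, with no count in either baseline (at least 88.4-fold and 52.6-fold against the untreated 4F cells, 118-fold and 70.0-fold against the WT control). Mmp10, a matrix metalloproteinase, was at 11.2, 9.51 and 10.9 CPM against 0.313, 0.658 and 0.144 in the untreated 4F cells and none in the WT control (at least 93.2-fold). Htr2b, a serotonin receptor, averaged 7.82, 0.0174 and 0 CPM, Pkp1, a desmosomal plaque protein, 5.51, 0.0337 and 0 CPM, and Ctsw, a cathepsin, 7.89, 0.253 and 0 CPM. Gm6325 (59.8, 1.56 and 0 CPM) is annotated as a pseudogene and Fam181b (7.90, 0.326 and 0 CPM) shares all of its exon bases with the opposite-strand Gm9934, so both are uncertain. Between 23.3% and 31.8% of the exon bases of Sfrp2, Ccnd1, Lig1, Cdkn1c and Cxcl16 are also shared with another transcript.

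The 5 largest fitted rises over the WT control that were not called the same way against the untreated 4F cells included Hoxa13 and Hoxb13, while none of the 5 largest falls of that kind was a Hox gene. Hoxa13 was at 14.7, 13.9 and 14.1 CPM in the TGFB-labelled libraries against none in the WT control, and Hoxb13 at 32.6, 36.9 and 37.4 CPM, yet both were lower than in the untreated 4F cells (-0.88, and -2.58). Sall1, a limb and kidney developmental factor, was called in opposite directions (log2 7.62 and -0.87), and Hoxa11os and Gm15772, a processed pseudogene whose count is uncertain, both without a called change against the untreated 4F cells, averaged 5.31, 4.49 and 0.0239 CPM and 197, 177 and 1.11 CPM. Hoxa11 and Hoxc11 rose in both (log2 8.19 and 1.15, and 6.24 and 0.64), Hoxc13 was called higher in the first comparison alone (log2 5.72 and -0.09), and Hoxd9 fell in both (log2 -8.83 and -2.96). Hoxa11 and Hoxa11os overlap on opposite strands. Ifi202b and Il1f10 had no count in the TGFB-labelled or the untreated 4F libraries and averaged 40.6 and 9.89 CPM in the WT control. Brinp3, Scg2 and Mchr1 averaged 226, 56.4 and 5.57 CPM in the WT control and under 0.1 CPM in the other 2 groups. These 5 genes were absent or nearly so in both groups of the 4F line.

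Inhibitors of ALK5 in the same table gave values of the same genes in other libraries. The D/KO cells (ERCC1_(d/-), female, 4 weeks, tail tip) treated with A83-01, Repsox or Vactosertib, 3 libraries each, and their untreated control share no library with either comparison. The paper applied the inhibitors for 3 days, and its methylation assay used a higher dose of A83-01 than of Repsox and Vactosertib. It also describes Vactosertib as an inhibitor of both ALK5 and ALK2, so the counts are not of matched treatments. A83-01 lowered 2178 of 15652 genes (13.9%) and raised 2131 (13.6%) against the D/KO control, Repsox 1523 (9.73%) and 1714 (11.0%), and Vactosertib 1361 (8.70%) and 1467 (9.37%). Of the 3158 genes higher in the TGFB-labelled cells in both comparisons, 1015 (32.1%) were lower with A83-01 and 164 (5.2%) higher, and these 1015 were 48.6% of the 2089 genes that A83-01 lowered among the genes tested in both. Of the 3646 lower in both, 1137 (31.2%) were higher with A83-01 and 315 (8.6%) lower, and the 1137 were 56.1% of the 2026 that A83-01 raised. Repsox lowered 703 (22.3%) of the former and raised 912 (25.0%) of the latter, and Vactosertib 651 (20.6%) and 826 (22.7%). All 3 inhibitors lowered 525 (16.6%) and raised 97 (3.1%) of the 3158, and raised 721 (19.8%) and lowered 160 (4.4%) of the 3646. Over all 14734 genes tested in both comparisons, all 3 lowered 988 (6.7%) and raised 1196 (8.1%). Of the 22 TGFb targets, A83-01 lowered 14 and raised 4, beside 13.9% and 13.6% of all genes: Ccn2 changed by -2.48 ± 0.16 and Bhlhe40 by -2.52 ± 0.09 (edgeR adjusted p = 1.61e-10 and 8.68e-14). Skil and Pmepa1 fell with it too (-2.67 and -1.79), while Smad7 was at 0.23 (adjusted p = 0.0753). The BMP list moved the other way, with 14 of 20 members raised and 3 lowered by A83-01, among them Atoh8 (2.77), Id4 (2.97) and Id1 (1.53). Not every list ran opposite to the label. Of 22 cell cycle genes A83-01 lowered 19 and raised 1, where the label had 15 lower and 3 higher than the WT control. Of 33 elastic fibre, matricellular and proteoglycan genes it lowered 19 and raised 10, where the label had 18 lower and 7 higher. Of 22 collagen-modifying enzymes it lowered 17 and raised 1, where the label had 7 lower and 12 higher. Of 26 contractile genes, A83-01 lowered 7 and raised 3, with Acta1 at -1.65, Acta2 at -0.52 and Tagln at -0.04. Repsox lowered 2 and raised 3 of them and Vactosertib lowered 5 and raised 1, with Acta2 at 0.10 and -0.19 (edgeR adjusted p = 0.74 and 0.49). Tgfbi, lower in the TGFB-labelled cells, was lowered by A83-01 as well (-2.92), and Hbegf and Ptgs2 were lower with it (-0.80 and -2.82). Genotype, line and age differ between the D/KO and the 4F cells, so the sizes are given side by side and were not tested against each other.

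**Figure D5:**
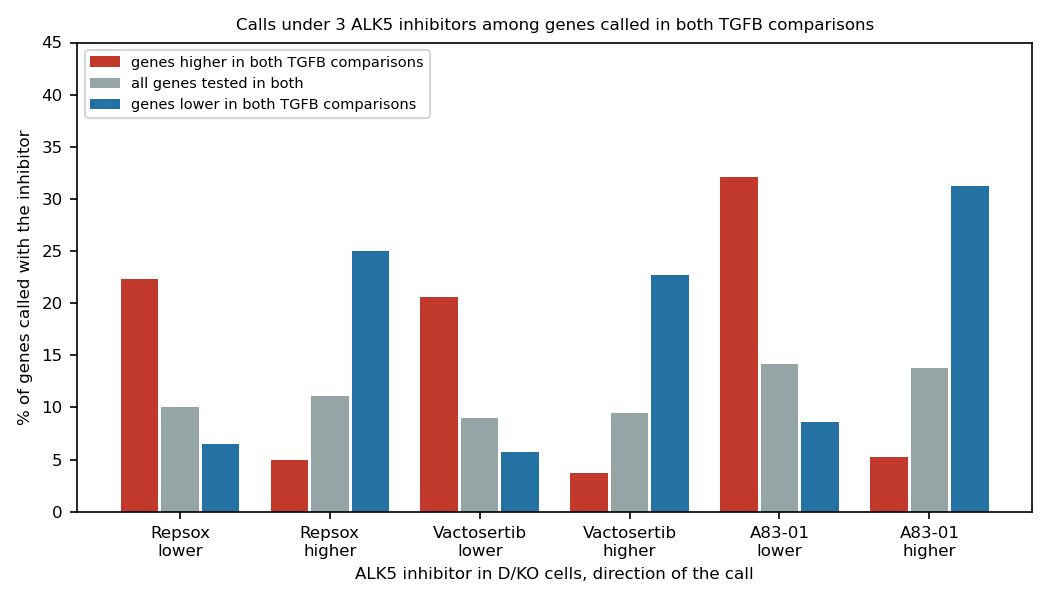
Percentage of genes called lower or higher with each ALK5 inhibitor in D/KO cells, for genes higher in both TGFB comparisons, genes lower in both and all 14734 genes tested in both. For A83-01 the bars reach 32.1% lower among genes higher in both and 31.2% higher among genes lower in both, beside 14.2% and 13.8% of all genes.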

How the data were processed

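RNA of cultured mouse fibroblasts was sequenced as 150 bp paired-end reads, and 9 libraries, 3 in each of 3 groups, carry the main comparisons. Per the labels and the methods, the authors made the deposited counts, raw and per gene, with FastQC, Trim Galore, HISAT2 on GRCm39 and featureCounts. Versions, strandedness and the handling of multi-mapping reads are not given in the sources used here. Symbols and overlaps came from GENCODE M39.

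Counts were analysed in R 4.3.3 with edgeR 4.0.16: TMM scaling, filterByExpr (minimum count 10, minimum total 15), the two-sided quasi-likelihood F-test and Benjamini-Hochberg adjustment over all genes tested, with a call at an adjusted p under 0.05. The first comparison, the inhibitors and the skin control used 1 fit of the 24 libraries of their table, and the second used 1 fit of 9 libraries from both tables. CPM are counts scaled to 1e6 per library with the TMM factors of the 9-library fit. DESeq2, which the authors used in a version not given in the sources used here, was an alternative in version 1.42.0. A call in 1 comparison and not in the other is no test of a difference between them, and none was run. Totals of 16882346 or more counts per library left replicate spread, not depth, as the limit of precision, and counting floors cover counting error only.

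The members and gene lists were chosen with earlier results of these data known. Named genes were a fixed set of pathway and line genes. To these were added, in each list, up to 4 genes with the smallest adjusted p in the first comparison among those called the same way in both and up to 2 among those that were not. Over all genes, the 10 largest rises and 10 largest falls called in both (at least 5 CPM, no overlap between groups) and the 5 largest of each in the first comparison only were named. Some genes that this rule takes in are not reported here. Further list members named beside them were chosen after their values were seen.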

Additional observations from a re-analysis of the deposited data

How the results depend on the processing

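Of the gene results tried under the alternatives, 559 kept their direction and their side of the threshold, 9 became called, 2 lost their call and 4 reversed. The reversals were Col1a1, at −0.58 with the WT skin control in the first comparison and −1.18 with the VC-labelled baseline in the second, and Id1, at 1.02 and 0.09 under the same changes. The lost calls were Tagln against the skin control (0.51) and Mmp3 in the fit of all 60 libraries (−0.52), and the new calls were all of Id1 or Mmp3, for example Id1 at −0.69 without WT control replicate 2. The cause was not tested.

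A minimum size of 1 on the log2 scale for a call lowered the counts by construction. It left 2440 genes higher and 3589 lower in the first comparison, 2034 higher and 3420 lower in the second, and 1863 higher and 1609 lower between the baselines. For both comparisons it left 1349 higher, 2254 lower and 184 opposite. It left 1017 higher and 979 lower with A83-01, 776 and 577 with Repsox, 647 and 479 with Vactosertib, and 1554 and 1032 for skin against tail tip.

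Leaving out 1 TGFB-labelled or WT control library at a time gave 4087 to 4396 higher and 4888 to 5140 lower in the first comparison, all below the main 4473 and 5266. Leaving out 1 of the 9 libraries at a time gave 4281 to 5361 higher and 5053 to 5952 lower in the second and 3676 to 4961 and 3717 to 5028 between the baselines. In both comparisons it gave 2876 to 3237 higher, 3329 to 3608 lower and 366 to 705 opposite. DESeq2, its size factors, no filter and a stricter filter kept every count within 1.5 times. Median centring kept the p-values of the main fits, so its equal counts and gene calls were fixed in advance and test nothing. The fit of all 60 libraries for the first comparison, the removal of the gene length trend and the VC-labelled baseline were chosen after seeing the data. No paired analysis was possible because the labels number the libraries through each table and share no replicate numbers between the groups compared.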
